A study of Mus musculus with 8 samples.

Results

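The 10 genes described here make and remodel fatty acids: Acly, Acaca, Fasn and Me1 build saturated chains, Elovl6 lengthens them, Scd1, Scd2, Fads1 and Fads2 add double bonds, and Srebf1 encodes a transcription factor that controls the pathway. They were taken by symbol from the 52636 gene identifiers of the count table, as members of the pathway and with earlier results of these data known, and all 10 were among the 16107 genes with enough counts to be tested. Counts came from bulk RNA sequencing of whole colon of wild-type female C57BL/6 mice that were germ-free, 6 weeks old and kept in gnotobiotic isolators. One group had been given Candida albicans SC5314 by oral gavage (3 libraries), another had been given Candida tropicalis MYA-3404 in the same way (2 libraries), and a control group completed the set (3 libraries). The dose was 100000000 colony-forming units (CFU), and colon was taken at day 30 in every group. Nothing in the labels ties a replicate number to an animal of its own, so the p-values rest on the spread among these 8 libraries, and some of it may be technical.

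Cells make fatty acids from citrate that leaves the mitochondria. ATP citrate lyase splits it to acetyl-CoA, acetyl-CoA carboxylase turns acetyl-CoA into malonyl-CoA, and fatty acid synthase joins these units into palmitate with reducing power that malic enzyme helps to supply. ELOVL6 then extends palmitate to stearate, stearoyl-CoA desaturases turn saturated into monounsaturated chains, and the FADS enzymes desaturate the polyunsaturated chains obtained from food. SREBP1, the product of Srebf1, is the main activator of this set in liver, and the intestinal epithelium also uses the pathway, for its membranes and for lipid export.

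Upstream sequence is shown for a gene of the synthesis core, for the gene that makes its acetyl-CoA and for the regulator. Fasn, Acly and Srebf1 were chosen because all averaged more CPM with C. tropicalis than in control colon. So did 7 of the 10 genes, and none passed a test. Each run is the 250 bases before the first RefSeq start of the gene (GRCm38.p6), 5′ to 3′ on the gene's own strand, and the capitals mark the letters CCAAT of the NF-Y box or their reverse complement.
Fasn (chr11:120824548-120824797, minus strand): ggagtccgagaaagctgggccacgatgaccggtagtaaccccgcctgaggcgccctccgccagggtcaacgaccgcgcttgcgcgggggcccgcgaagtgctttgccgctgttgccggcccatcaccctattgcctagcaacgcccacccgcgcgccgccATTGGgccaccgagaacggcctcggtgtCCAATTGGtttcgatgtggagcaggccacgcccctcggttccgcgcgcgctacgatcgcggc
Acly (chr11:100528001-100528250, minus strand): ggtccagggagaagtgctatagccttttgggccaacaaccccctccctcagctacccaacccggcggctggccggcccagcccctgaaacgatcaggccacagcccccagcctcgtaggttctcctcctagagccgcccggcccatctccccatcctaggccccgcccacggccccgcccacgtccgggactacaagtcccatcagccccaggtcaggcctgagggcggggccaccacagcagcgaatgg
Srebf1 (chr11:60222582-60222831, minus strand): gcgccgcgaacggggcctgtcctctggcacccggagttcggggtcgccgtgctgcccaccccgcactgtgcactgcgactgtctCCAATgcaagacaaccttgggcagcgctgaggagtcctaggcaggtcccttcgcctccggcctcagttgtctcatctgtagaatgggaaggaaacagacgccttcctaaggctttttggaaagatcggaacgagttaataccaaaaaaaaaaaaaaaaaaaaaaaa

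Windows before a RefSeq start were matched for 7 of the 10 genes, not for Scd1, Scd2 or Fads1. The Acaca window (chr11:84195188-84195437, plus strand) lies inside that gene, which spans 84129672 to 84401651. Me1 window 2 and Srebf1 windows 2 and 3 also lie inside their genes. NF-Y is a ubiquitous factor that often acts beside SREBP at lipid genes. In the Fasn window its letters began 90, 62 and 59 bases before the start, the last pair overlapping each other. In the first Srebf1 window they began 166 bases before the start, and the Acly window held none. Of the other Srebf1 windows, which are not shown, number 2 held none, and in number 3 they began 30 bases before its start. In Me1 window 2 they began 208 bases before its start. Me1 window 1 and the windows of Acaca, Elovl6 and Fads2 held none. Neither the letters TCACNCCAC of the classical sterol regulatory element nor the E-box letters CACGTG occurred on either strand in any window of the 7 genes. Over the 32851 windows of the same length in the table, 33.8% held the NF-Y letters, 1.05% the sterol regulatory element letters and 6.02% the E-box letters. A match of letters is a description and says nothing about binding.

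Depth was even, with 16195376 to 19761098 counts per library. Among the 10 genes the lowest count in any library was 68, for Me1 in C. tropicalis 1, and the highest was 27906, for Scd2 in the same library, so none was near the level that a count of 0 allows. Libraries of 1 group differed from each other by 19.3 to 73.5 times the variance that sampling gives, and all 8 were kept. The markers of colon epithelium were all detected, with a summed level of 18240 to 21580 counts-per-million (CPM) with C. albicans, 21190 to 24040 CPM with C. tropicalis and 16710 to 18840 CPM in control colon. Smooth muscle markers differed far more. Their summed level was 9417 to 27220 CPM with C. albicans, 3605 to 4611 CPM with C. tropicalis and 6443 to 12570 CPM in control colon. In whole colon, fewer cells of a type and less RNA per cell cannot be told apart.

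Per kilobase of exon, the 10 genes kept nearly the same order in the 3 groups. The stearoyl-CoA desaturase gene Scd2 stood first, at 134.9 ± 39.2 CPM per kilobase with C. albicans, 245 ± 65.6 with C. tropicalis and 160.5 ± 69.0 in control colon (SD, n = 3, 2 and 3). Fads2 and Acly came next and did not differ from each other beyond their spread in any group. Srebf1 and Fasn followed, again within the spread of one another in every group. Below a wide gap stood Scd1, then Fads1 and Elovl6, and last Acaca and Me1. Of the 50-base windows in their transcripts, 30.4% for Acaca and 22.9% for Me1 also occur in other genes. The places of these 2 genes may thus depend on how shared reads were handled. The gap between Fasn and Scd1 exceeded the larger SD in all 3 groups, at 34.7 CPM per kilobase with C. albicans, 42.6 with C. tropicalis and 28.1 in control colon, and the ranges of the 2 genes did not overlap.

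The first 6 places were the same in all groups, and changes were limited to the other 4 genes. Elovl6 ranked 7 of 10 with C. albicans, 9 with C. tropicalis and 8 in control colon, and with C. tropicalis it was below Acaca, the carboxylase that makes malonyl-CoA, though within its spread. Only Me1 lay lower there, at 1.26 ± 0.359 CPM per kilobase against 2.97 ± 0.0476 for Elovl6 (SD, n = 2 each).

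**Figure D1:**
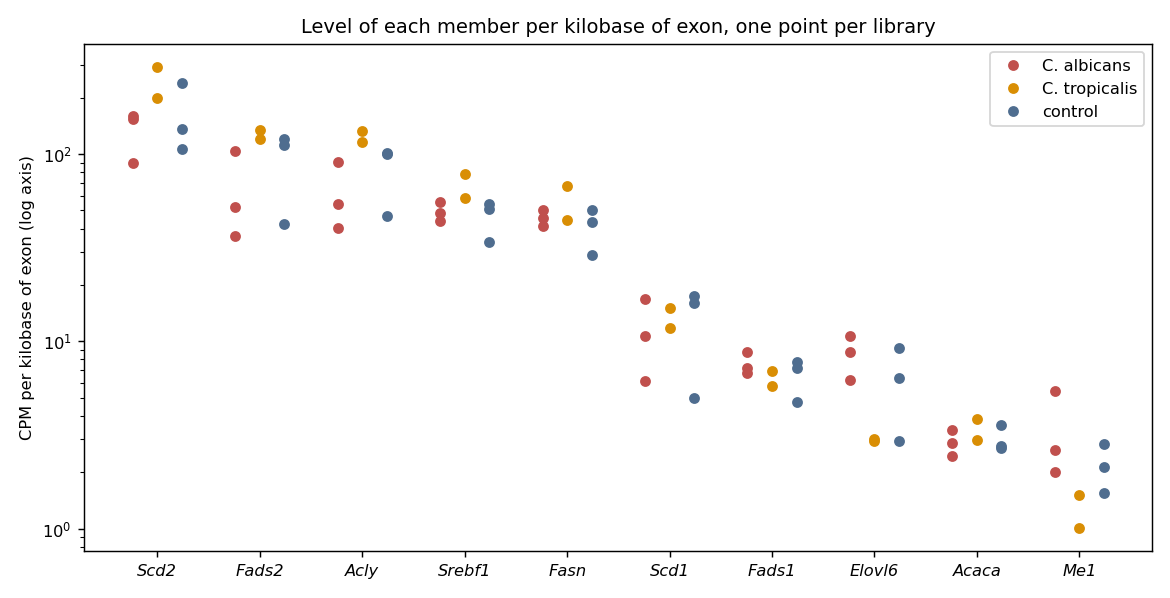
Level of each gene in CPM per kilobase of exon, on a log axis, with 1 point per library and the groups side by side. Scd2 is highest and Me1 or Acaca lowest in each group, and the 2 C. tropicalis points of Elovl6 lie below all 3 C. albicans points.

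The desaturase paralogs were unequal throughout. Scd2 supplied 93.8%, 84.2% and 96.2% of the summed Scd1 and Scd2 level per kilobase in C. albicans 1, 2 and 3, 95.1% and 94.4% in the C. tropicalis libraries, and 95.5%, 93.2% and 89.5% in control 1, 2 and 3. The lowest share thus came from C. albicans 2. The ratio of Fads2, the delta-6 desaturase, to Fads1, the delta-5 desaturase, varied much more between libraries of a group. It was 15.3, 4.16 and 7.21 in C. albicans 1, 2 and 3, 19.4 and 20.9 in the C. tropicalis libraries, and 5.45, 15.4 and 25.5 in control 1, 2 and 3. The control libraries spanned both C. tropicalis values and every C. albicans value except the lowest.

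Acetyl-CoA supply gave one of the larger differences between the 2 yeasts. Acly, which encodes ATP citrate lyase (chromosome 11, 100476353 to 100528000), measured 477, 213 and 287 CPM in C. albicans 1, 2 and 3, 705 and 616 CPM in C. tropicalis 1 and 2, and 246, 527 and 538 CPM in control 1, 2 and 3. Both C. tropicalis libraries lay above all others, and control 1 sat among the low C. albicans libraries. The log2 fold change was -0.42 ± 0.35 with C. albicans against control, 0.60 ± 0.38 with C. tropicalis against control and 1.02 ± 0.38 with C. tropicalis against C. albicans (SE). In edgeR's quasi-likelihood test the adjusted p was 0.559 and 0.471 for the comparisons with control and 0.158 between the yeasts, so none passed. DESeq2 gave 0.0498 between the yeasts, just inside the threshold of 0.05, whereas with the level of smooth muscle markers in the edgeR fit the change was -0.40 ± 0.40 (adjusted p = 0.826).

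Me1 encodes the cytosolic malic enzyme (chromosome 9, 86581371 to 86695953), a source of the NADPH that synthesis consumes, and its pattern ran the other way. Its level was 7.70, 20.9 and 10.1 CPM in C. albicans 1, 2 and 3, 3.88 and 5.84 CPM in the C. tropicalis libraries, and 10.9, 8.22 and 5.97 CPM in control 1, 2 and 3. Both C. tropicalis libraries lay below all 6 others, control 3 by little, and C. albicans 2 stood apart at the top. On the log2 scale the change was 0.63 ± 0.38 with C. albicans against control (adjusted p = 0.439), -0.78 ± 0.45 with C. tropicalis against control (0.423) and -1.41 ± 0.45 with C. tropicalis against C. albicans (0.113). Between the yeasts the gene passed in DESeq2 (adjusted p = 0.0151) and in edgeR without C. albicans 1 (0.0458). Without C. albicans 2, the library at the top, the change was -0.88 ± 0.35 between the yeasts (adjusted p = 0.29) and 0.09 ± 0.31 with C. albicans against control (0.941). With smooth muscle markers in the fit it was 0.40 ± 0.38 between the yeasts (0.818). Of the 50-base windows in its transcripts, 22.9% also occur in the processed pseudogenes Gm7049 and Gm7329, which held 1 and 0 counts over the 8 libraries.

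Neither of the 2 enzymes that build the chain itself passed in any comparison, and their groups overlapped throughout. Acaca, acetyl-CoA carboxylase 1 (chromosome 11, 84129672 to 84401651), measured 57.3, 48.9 and 41.9 CPM in C. albicans 1, 2 and 3, 65.5 and 50.8 CPM with C. tropicalis, and 46.9, 60.9 and 46.0 CPM in control 1, 2 and 3. Its groups overlapped in every comparison, and its log2 fold changes were -0.05 ± 0.17 for C. albicans and 0.18 ± 0.19 for C. tropicalis, each against control, and 0.24 ± 0.19 between the yeasts, always taken as C. tropicalis over C. albicans. The 95% interval of the C. albicans change ran from -0.44 to 0.33. About 30.4% of its 50-base windows also occur in other genes, so its counts may depend on how shared reads were handled.

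Fasn encodes fatty acid synthase (chromosome 11, 120805846 to 120824547). It measured 552.5, 454 and 500.5 CPM in C. albicans 1, 2 and 3, 743 and 484 CPM in C. tropicalis 1 and 2, and 317.5, 551 and 475 CPM in control 1, 2 and 3. C. tropicalis 1 was high and control 1 low, and the ranges of all 3 groups overlapped. Fold changes on the log2 scale were 0.17 ± 0.23 with C. albicans against control, 0.45 ± 0.26 with C. tropicalis against control and 0.29 ± 0.26 with C. tropicalis against C. albicans, with adjusted p of 0.735, 0.415 and 0.548. The 95% intervals were -0.36 to 0.69, -0.12 to 1.03 and -0.29 to 0.87, so an increase of 1.5-fold is inside each of them.

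Elovl6, which encodes the elongase from palmitate to stearate (chromosome 3, 129532355 to 129638495), gave the largest difference of the 10 genes. It measured 40.0, 68.35 and 56.6 CPM in C. albicans 1, 2 and 3, 19.3 and 18.9 CPM in the C. tropicalis libraries, and 59.5, 40.75 and 18.8 CPM in control 1, 2 and 3. All C. albicans libraries lay above both C. tropicalis libraries, but the controls covered almost the whole range and control 3 was at the C. tropicalis level. The log2 fold change was 0.47 ± 0.36 with C. albicans against control (adjusted p = 0.525) and -1.05 ± 0.42 with C. tropicalis against control (0.292). Between the yeasts it was -1.53 ± 0.42 with C. tropicalis against C. albicans (adjusted p = 0.0848), a 95% interval of -2.48 to -0.57, which misses the threshold. That call was made, in the same direction, by DESeq2 (adjusted p = 0.00216), with no filter on low counts (0.0224), with only the 2 groups in the fit (0.0243), and without C. albicans 1 (0.0479), control 1 (0.0441) or control 3 (0.0258). It was not made with the replicate number as a block (0.135), nor without C. albicans 2 (0.212), C. albicans 3 (0.195), control 2 (0.136), C. tropicalis 1 (0.334) or C. tropicalis 2 (0.347). With smooth muscle markers in the fit the change was 0.09 ± 0.39 (0.963).

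Scd2, the main stearoyl-CoA desaturase here (chromosome 19, 44293674 to 44306864), measured 877.5, 490.5 and 843 CPM in C. albicans 1, 2 and 3, 1594 and 1087 CPM with C. tropicalis, and 584, 1302 and 743 CPM in control 1, 2 and 3. Both C. tropicalis libraries exceeded the C. albicans libraries, while control 2 lay between the 2 C. tropicalis values. The log2 fold change was -0.25 ± 0.33 with C. albicans against control, 0.61 ± 0.36 with C. tropicalis against control and 0.86 ± 0.36 with C. tropicalis against C. albicans, with adjusted p of 0.719, 0.441 and 0.197.

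Scd1, its paralog (chromosome 19, 44394455 to 44407879), had no common direction. Levels were 52.3, 82.15 and 30.1 CPM in C. albicans 1, 2 and 3, 74.1 and 57.8 CPM with C. tropicalis, and 24.5, 84.95 and 78.0 CPM in control 1, 2 and 3. The groups overlapped throughout, with a wide spread inside both groups of 3 libraries, and the log2 fold changes were -0.19 ± 0.46, 0.08 ± 0.51 and 0.27 ± 0.51 in the order used for Acaca. Close copies share 4.56% of the 50-base windows of Scd1 and 3.97% of those of Scd2, and Scd3 and Scd4 held 36 and 108 counts in all, so most of the 2 transcripts can be told apart at that length.

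Fads2 (chromosome 19, 10062765 to 10101746) measured 340, 121 and 172 CPM in C. albicans 1, 2 and 3, 442.5 and 396 CPM with C. tropicalis, and 139, 367 and 398 CPM in control 1, 2 and 3. C. tropicalis was above C. albicans in every library, and control 2 and 3 reached or came near its level. Its log2 fold change was -0.51 ± 0.44 with C. albicans against control, 0.48 ± 0.48 with C. tropicalis against control and 0.99 ± 0.48 with C. tropicalis against C. albicans, with adjusted p of 0.575, 0.653 and 0.257. Fads1 (chromosome 19, 10182888 to 10196877) measured 32.5, 42.3 and 34.9 CPM in C. albicans 1, 2 and 3, 33.2 and 27.7 CPM with C. tropicalis, and 37.2, 34.85 and 22.75 CPM in control 1, 2 and 3. Its groups overlapped, and its log2 fold changes stayed between -0.26 ± 0.22 and 0.21 ± 0.20, unlike those of Fads2, its neighbour on the chromosome, though the difference between the 2 genes was not tested.

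Srebf1, the gene of SREBP1 (chromosome 11, 60199089 to 60222581), measured 272.5, 247 and 313.5 CPM in C. albicans 1, 2 and 3, 441 and 329 CPM in C. tropicalis 1 and 2, and 192, 287.5 and 305 CPM in control 1, 2 and 3. Both C. tropicalis libraries lay above all 6 others, C. tropicalis 2 by a small margin. The log2 fold change was 0.09 ± 0.20 with C. albicans against control (adjusted p = 0.847), 0.56 ± 0.23 with C. tropicalis against control (0.296) and 0.47 ± 0.23 with C. tropicalis against C. albicans (0.248). SREBP1 is activated by cleavage of its protein, which these counts do not measure. The libraries do not keep the strand, and the gene shares 109 exon bases with Rai1 on the opposite strand, which held 9964 counts against 42092 for Srebf1.

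**Figure D2:**
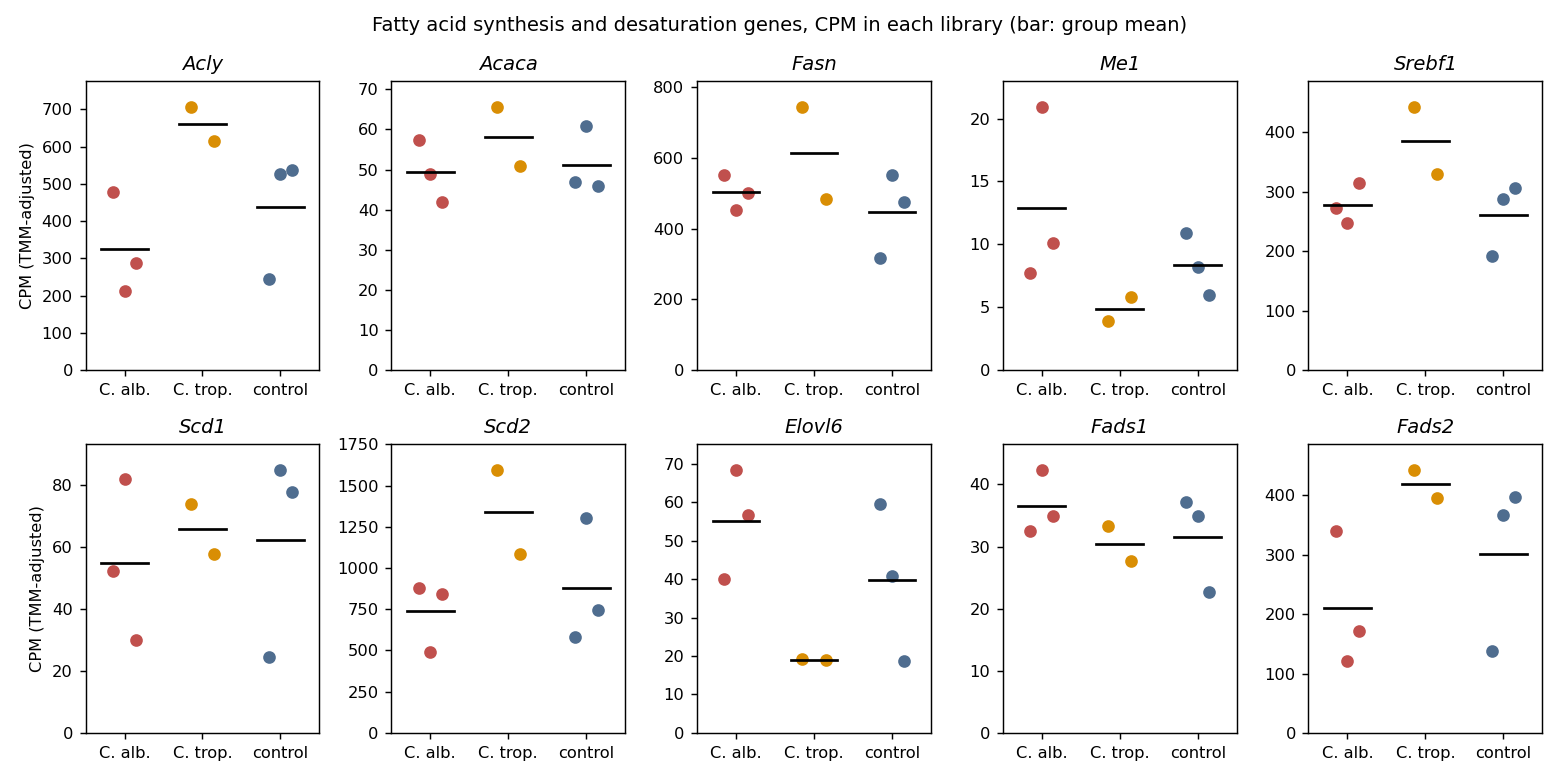
Level of each of the 10 genes in CPM (library sizes scaled by TMM) in each library, with black bars at the group means. C. tropicalis points lie above all C. albicans points for Acly, Scd2, Fads2 and Srebf1 and below them for Elovl6 and Me1. Against the controls, both C. tropicalis points are outside the range for Acly, Srebf1 and Me1 and within or overlapping it for the other 7 genes.

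With C. albicans against control, the pathway as a set showed no common direction. Of the 10 genes 5 were above and 5 below control, none passed at an adjusted p of 0.05, where 0.0435% of all tested genes did, and none reached an unadjusted p of 0.05, where 15.4% of all tested genes did (9.13% higher and 6.31% lower). Over all tested genes 48.2% were above control. None of the 10 had groups that did not overlap, against 19.4% of all tested genes (9.82% above and 9.57% below). The median log2 fold change of the 10 was 0.02, beside -0.02 for all tested genes. The changes ranged from -0.51 for Fads2 to 0.63 for Me1.

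With C. tropicalis against control, 7 of the 10 genes were above control and 3 below, beside 47.9% of all tested genes above. None passed at an adjusted p of 0.05, where 0.031% of all tested genes did. An unadjusted p under 0.05 was reached by 2 of 10, Elovl6 lower and Srebf1 higher, against 15.4% of all tested genes (7.33% higher and 8.05% lower). The groups did not overlap for 3 of 10, against 32.5% of all tested genes (16% above and 16.5% below). Acly and Srebf1 were the ones above every control and Me1 the one below. The median log2 fold change was 0.32, beside -0.02 for all tested genes, and leaving out 1 library at a time put it between 0.05 and 0.50. This comparison and the one with C. albicans share their control libraries, so their values are not independent.

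With C. tropicalis against C. albicans, none of the 10 genes passed at an adjusted p of 0.05, where 0% of all tested genes did. The count at an unadjusted p under 0.05 was 4 of 10, with Acly and Scd2 higher and Elovl6 and Me1 lower, against 23.2% of all tested genes (8.83% higher and 14.4% lower), 3744 in number. Groups did not overlap for 6 of 10, with Acly, Scd2, Fads2 and Srebf1 above and Elovl6 and Me1 below, against 45.9% of all tested genes (23.4% above and 22.4% below). DESeq2 called 3 of the 10 (Acly, Elovl6 and Me1) and 1753 of the 26954 genes it was run on. The median log2 fold change was 0.28, beside 0.04 for all tested genes. Without 1 library at a time it was 0.06 (without C. tropicalis 1) to 0.50 (without C. tropicalis 2), and with smooth muscle markers in the fit it was 0.08. The change was above 0 for 7 of the 10 genes and for 53.7% of all tested genes.

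**Figure D3:**
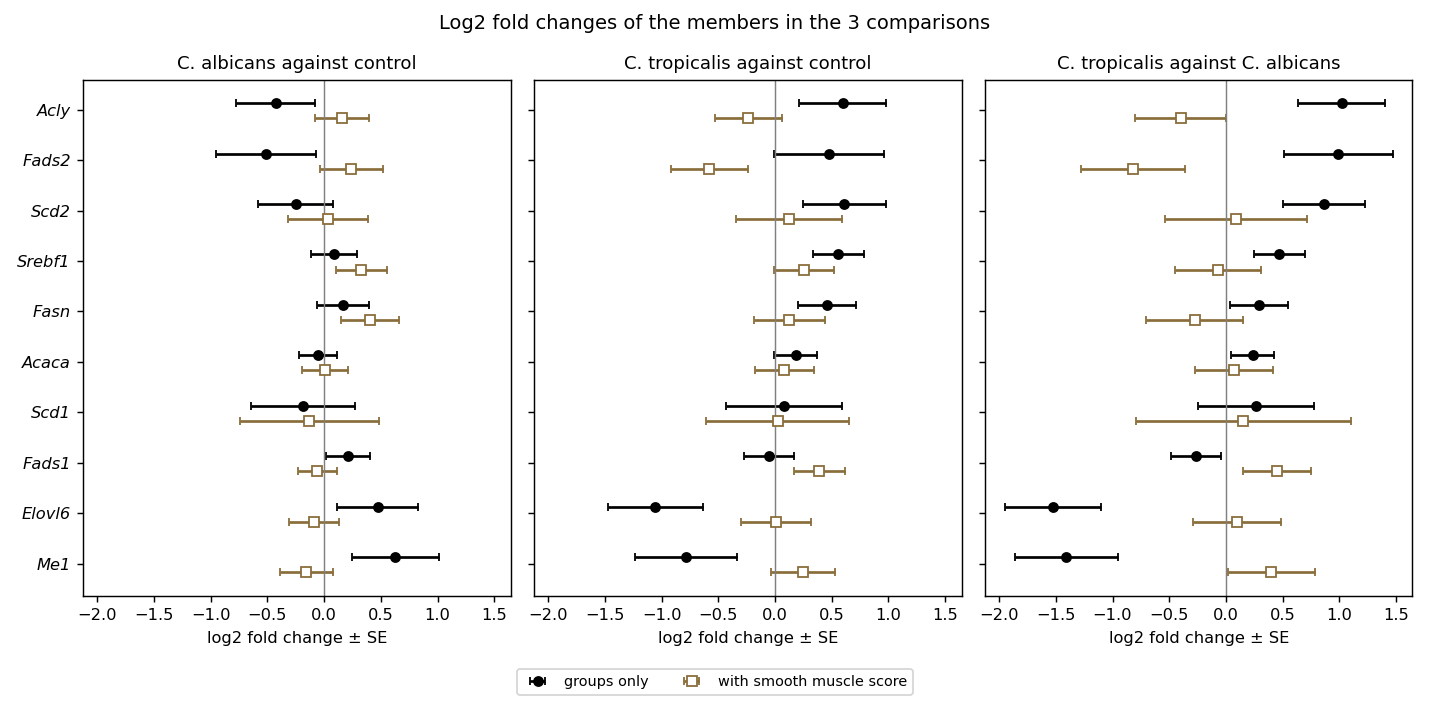
Log2 fold change with its standard error for each gene in the 3 comparisons, from the fit with groups only (filled circles) and from the one that adds the smooth muscle score (open squares). Between the yeasts the circles run from -1.53 for Elovl6 to 1.02 for Acly, and with the covariate the squares run from -0.82 for Fads2 to 0.45 for Fads1.

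Across the 8 libraries, 2 opposed patterns that cut through the groups were seen in some of the genes, mainly Acly and Fads2 on one side and Elovl6 and Me1 on the other. Acly and Fads2 varied together, with a Pearson r of 0.99 and a Spearman rho of 0.98 over the 8 libraries, and an r of 0.97 without the 2 libraries farthest from the median of Acly. C. albicans 2 and control 1 were lowest for both genes and C. tropicalis 1 highest. Elovl6 and Me1 had the mirror image: their r with Acly was -0.90 and -0.92 (rho -0.88 and -0.98), and with each other 0.89 (rho 0.90). Fads1 varied with Elovl6 (r 0.82, rho 0.98), although its whole range was narrow. Fasn varied with Srebf1 (r 0.89, rho 0.60), but this rested on C. tropicalis 1 and control 1, without which r was 0.04. By rank, Scd1 and Acaca followed neither pattern closely, with rho of 0.21 and 0.50 with Acly and of -0.14 and -0.19 with Elovl6. Their r was 0.49 and 0.63 with Acly and -0.45 and -0.35 with Elovl6. With Acly it was 0.83 for Scd1 without C. albicans 2 and control 1, and 0.39 for Acaca without C. tropicalis 1 and control 2. These r values are descriptions without a test, over libraries that share their group and depth.

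Both patterns moved with the level of smooth muscle markers. A smooth muscle score was taken as the mean log2 CPM of 10 smooth muscle marker genes minus its mean over the 8 libraries. It was 0.02, 1.51 and 0.76 in C. albicans 1, 2 and 3, -1.25 and -0.996 in C. tropicalis 1 and 2, and 0.52, 0.10 and -0.67 in control 1, 2 and 3. Every C. tropicalis library was below every other library on this score, and the controls spanned much of the range. Me1 and Elovl6 were highest where the score was highest, with r of 0.97 and 0.955 (rho 0.98 and 0.88) and, without C. albicans 2 and C. tropicalis 1, 0.97 and 0.97. Acly and Fads2 were lowest there, with r of -0.93 and -0.90 (rho -0.95 and -0.93) and, without the same libraries, -0.85 and -0.82. Inside the control group alone the order was the same, with Elovl6 at 59.5, 40.75 and 18.8 CPM and Acly at 246, 527 and 538 CPM as the score went down.

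**Figure D4:**
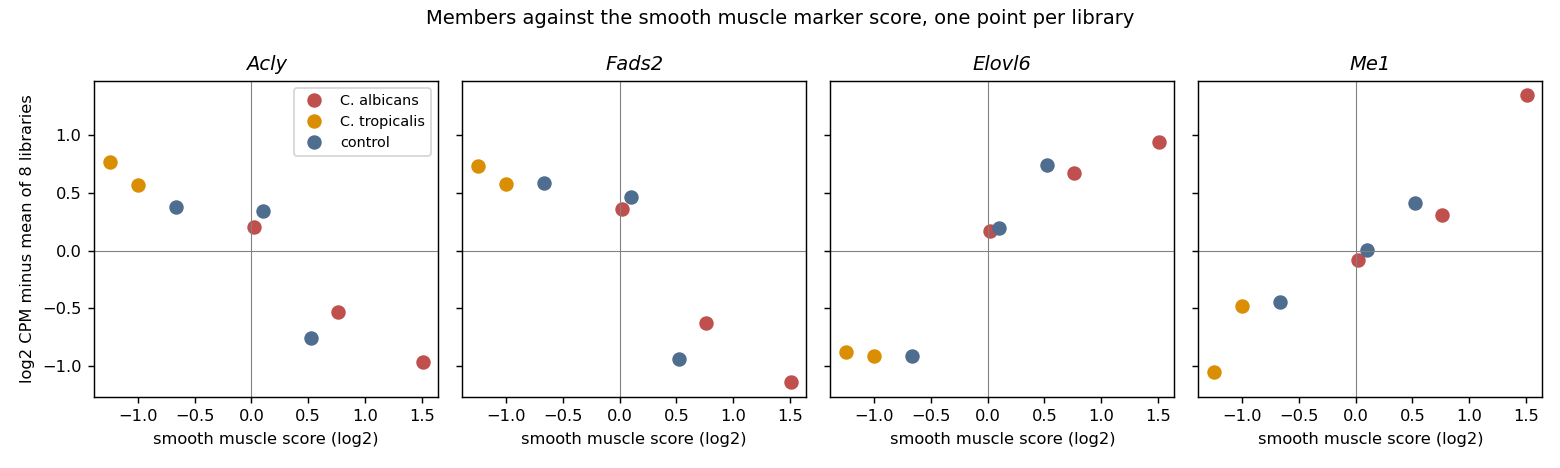
Level of Acly, Fads2, Elovl6 and Me1 (log2 CPM minus the mean of the 8 libraries) against the smooth muscle score of each library (log2). Acly and Fads2 descend and Elovl6 and Me1 ascend with the score, and the control points lie along the same course as the colonized ones.

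When the score entered the fit as a covariate, 19 of the 30 log2 fold changes (10 genes in 3 comparisons) had the opposite sign. Between the yeasts these included Acly, Elovl6 and Me1, as given with each gene, and Fads2, at -0.82 ± 0.46 (SE). None of the 10 genes passed in that fit in any comparison. The score itself differed between the groups, so a change in muscle content and a change per cell cannot be told apart for these genes.

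Markers of other cell types moved with the same genes. Enteric glia markers summed to 40.8 to 97.9 CPM with C. albicans, 21.4 to 29.6 CPM with C. tropicalis and 40.7 to 49.0 CPM in control colon, and their score had an r of 0.95 with Me1 (rho 0.95) and of -0.87 with Acly (rho -0.90). Without C. albicans 2 and C. tropicalis 1 these r were 0.75 and -0.74. B cell markers summed to 13.2 to 68.9 CPM with C. albicans, 70.9 to 101.5 CPM with C. tropicalis and 19.0 to 303 CPM in control colon. The B cell score had the same sign as Acly and Fads2 in all 8 libraries, with an r of 0.80 and 0.85 (rho 0.79 and 0.83) and, without C. albicans 2 and control 3, of 0.73 and 0.78. The epithelial score had an r of 0.88 with Fads1 (rho 0.74), which was 0.37 without C. albicans 2 and control 3. Adipocyte markers, of which 9 of 10 were tested and Lep was too low, summed to 91.6 to 311.5 CPM with C. albicans, 24.1 to 65.4 CPM with C. tropicalis and 46.6 to 335 CPM in control colon. Retn, the adipocyte gene of resistin, was at 0 in C. tropicalis 1 and control 1. Scd1, which fat cells express strongly, had an r of 0.45 with the adipocyte score (rho 0.60), and with that score as a covariate its log2 fold change was 0.997 ± 0.50 with C. tropicalis against control and 1.29 ± 0.54 between the yeasts (adjusted p = 0.388 and 0.217). None of the 30 signs turned in that fit. The epithelial markers Cdx2 and Car1 separated libraries within groups as well. The other markers of that list varied less, from Epcam at 1299 to 1677 CPM to Krt20 at 273 to 1190 CPM. Cdx2, a transcription factor of intestinal identity, was at 224, 470 and 378 CPM in C. albicans 1, 2 and 3, 26.3 and 28.6 CPM with C. tropicalis, and 339.5, 192 and 26.9 CPM in control 1, 2 and 3. Car1, a carbonic anhydrase of colonocytes, was at 306, 432 and 179.5 CPM with C. albicans, 2231 and 2255 CPM with C. tropicalis, and 243, 388.5 and 1602 CPM in control 1, 2 and 3. In summed B cell and adipocyte markers control 3, at 303 and 335 CPM, was far above the C. tropicalis libraries. It resembled them in Cdx2, Car1 and Elovl6. Which stretch of colon each sample came from is not given in the sources used here, so a difference in the site sampled cannot be told apart from one between the groups in these genes. The part of these differences in the fatty acid genes was not tested.

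**Figure D5:**
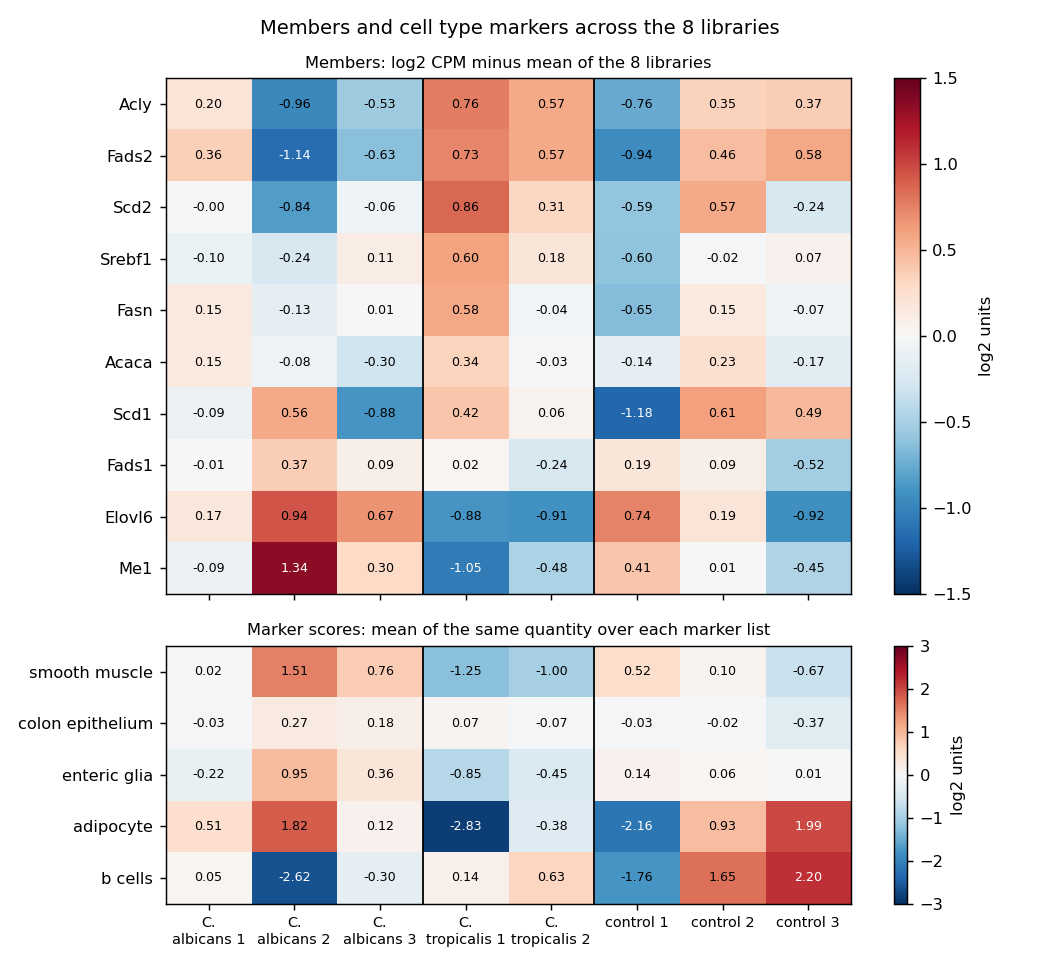
Level of each gene (upper panel) and score of 5 marker lists (lower panel) in each library, as log2 CPM minus the mean of the 8 libraries. Elovl6 and Me1 share the signs of the smooth muscle score in nearly every library, Acly and Fads2 have the opposite sign in most, and the B cell score has the sign of Acly and Fads2 in all 8 libraries.

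Genes outside the pathway whose level over the 8 libraries was most like that of a member were found among 10842 protein-coding genes with a mean of at least 5 CPM. For Elovl6 they were Enah, Tnc and Six2 (r 0.995, 0.995 and 0.99), and for Me1 they were Syt11, the muscle tropomyosin gene Tpm1 and Epdr1 (0.996, 0.99 and 0.99). Acly was matched by Thbs4, Slc46a1, which encodes a folate transporter, and Ceacam18 (0.99 each), and Fads2 by Fxyd4, Faah, which encodes fatty acid amide hydrolase, and Rab15 (0.99 each). Scd2 was nearest to Aco1, Dhcr7, an enzyme of cholesterol synthesis, and Tmem79 (0.98, 0.97 and 0.96). Srebf1 was nearest to Capn2, the cholesterol exporter gene Abcg1 and Xpnpep1 (0.98, 0.97 and 0.97), and Fasn to Ap1b1, Zbtb42 and Panx1 (0.99, 0.95 and 0.95). The nearest genes to Scd1 were Cyb5r3, which encodes the cytochrome b5 reductase that passes electrons towards desaturases, Slc25a12 and S1pr2 (0.95, 0.94 and 0.94). For Acaca, Brap and St7l are given (0.945 and 0.94), and for Fads1 Ptpn11, Bmpr1a and Hipk3 (0.97, 0.96 and 0.96). The mean of the 10 genes was most like Rad51d, Clptm1 and Eif2b2 (0.96, 0.96 and 0.95). Among so many genes and only 8 libraries, high r values are common, and they say nothing of shared control.

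The wider fatty acid pathway gave no call either. Over all tested genes 48.2% were above control with C. albicans and 47.9% with C. tropicalis. Of 17 tested genes for acetyl-CoA, malonyl-CoA and NADPH supply, 8 were above and 9 below control with C. albicans, and 7 were above and 10 below control with C. tropicalis, with 0 past the threshold in both. Me3, a mitochondrial malic enzyme, was at 0.27 ± 0.25 (log2 fold change, SE) with C. albicans against control and -1.25 ± 0.30 with C. tropicalis against control (adjusted p = 0.168), a split like that of Me1. Acss1, which encodes a mitochondrial acetyl-CoA synthetase, was at -0.65 ± 0.19 with C. tropicalis against control (adjusted p = 0.224), and Cbr4, of mitochondrial fatty acid synthesis, was at -0.50 ± 0.16 with C. albicans against control (0.244). Of 16 tested elongases, dehydratases and desaturases, 7 were above and 9 below control with C. albicans and 10 above and 6 below with C. tropicalis. Elovl7, another elongase, was at -0.39 ± 0.13 with C. albicans and 0.46 ± 0.15 with C. tropicalis, each against control. The log2 change of the dehydratase gene Hacd4 was 0.53 ± 0.30 with C. albicans and -1.27 ± 0.36 with C. tropicalis against control, and that of Elovl1 was 0.32 ± 0.13 and 0.42 ± 0.14. None of these passed, with adjusted p of 0.217 to 0.4.

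Glycerolipid assembly, the step that stores the chains, had 11 of 18 genes above control with C. albicans and 7 of 18 with C. tropicalis. Over all tested genes the shares above control were 48.2% and 47.9%. Lpin1, a phosphatidate phosphatase, measured 12.4, 12.55 and 11.7 CPM in C. albicans 1, 2 and 3, 6.68 and 5.10 CPM with C. tropicalis, and 12.2, 17.8 and 14.25 CPM in control 1, 2 and 3. The C. tropicalis libraries were below all others, with a log2 fold change of -1.32 ± 0.22 against control (adjusted p = 0.112). Dgat2, which completes triglycerides, was at 0.87 ± 0.21 with C. albicans against control (adjusted p = 0.177) and -0.39 ± 0.24 with C. tropicalis against control (0.45). Pnpla3, a lipid droplet lipase gene, was at 0.03 ± 0.67 with C. albicans and -2.22 ± 0.91 with C. tropicalis (0.985 and 0.304). Its level was low, at 1.24 ± 1.26 CPM with C. albicans and 1.22 ± 0.345 CPM in control colon (SD, n = 3 each). With C. tropicalis it was 0.256 ± 0.119 CPM (SD, n = 2), close to the level that a count of 0 allows.

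Among 21 regulators of lipid synthesis, 12 were above and 9 below control with either yeast, and 0 passed. Beside this, 48.2% of all tested genes were above control with C. albicans and 47.9% with C. tropicalis. Insig1, whose protein holds the SREBPs in the endoplasmic reticulum and whose gene is a target of them, measured 119, 88.45 and 114 CPM in C. albicans 1, 2 and 3, 110 and 91.7 CPM with C. tropicalis, and 174, 251 and 170.1 CPM in control 1, 2 and 3. Every colonized library was below every control, with log2 fold changes of -0.89 ± 0.19 for C. albicans (adjusted p = 0.15) and -0.98 ± 0.22 for C. tropicalis (0.164). Trib1, a regulator of lipogenic transcription in liver, was at 0.84 ± 0.25 with C. albicans and 0.99 ± 0.27 with C. tropicalis against control (0.231 and 0.211). Prkaa2, a catalytic subunit of the kinase AMPK that inhibits acetyl-CoA carboxylase, was at 0.65 ± 0.18 and 0.20 ± 0.20 (0.216 and 0.654).

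Cholesterol synthesis, the sister pathway under SREBP2, was set beside these genes for comparison. All 22 of its tested genes were below control with C. albicans, where 8345 of the 16107 tested genes were, and 16 of 22 were below with C. tropicalis, where 8387 were. None passed in either. With C. albicans the groups did not overlap for 3 of the 22, all below, against 19.4% of all tested genes (9.57% below). The summed level of the 22 genes overlapped, at 1980 to 2437 CPM with C. albicans and 2315 to 3361 CPM in control colon. Control 2 was the highest library. The median log2 fold change of the 22 was -0.30 with each yeast against control, whereas for the 10 fatty acid genes it was 0.02 with C. albicans and 0.32 with C. tropicalis. Hmgcs1, the synthase that makes HMG-CoA, averaged 156 ± 14.2 CPM with C. albicans, 125 ± 7.25 CPM with C. tropicalis and 233 ± 57.0 CPM in control colon (SD, n = 3, 2 and 3), with adjusted p of 0.246 and 0.168 for the comparisons with control. Fdft1, squalene synthase, averaged 103 ± 5.30, 86.3 ± 10.1 and 154 ± 35.8 CPM in the same order (adjusted p = 0.231 and 0.168). Fdps, farnesyl diphosphate synthase, averaged 2.76 ± 0.732, 2.87 ± 0.137 and 5.95 ± 0.419 CPM (0.165 and 0.216), and copies of it elsewhere in the genome were not checked. The difference between the 2 lists was not tested.

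Fatty acid oxidation, which burns what this pathway makes, had 9 of 24 genes above control with C. albicans and 4 of 24 with C. tropicalis, and none passed. Over all tested genes 48.2% and 47.9% were above. With C. albicans the groups did not overlap for 8 genes below and 1 above, against 9.57% and 9.82% of all tested genes. With C. tropicalis these were 11 below and 1 above, against 16.5% and 16%. Angptl4, an inhibitor of lipoprotein lipase, measured 1.24, 1.73 and 0.915 CPM in C. albicans 1, 2 and 3, 0.514 and 0.68 CPM with C. tropicalis, and 4.05, 2.08 and 4.62 CPM in control 1, 2 and 3. Colonized libraries lay below the controls, with log2 fold changes of -1.46 ± 0.39 for C. albicans (adjusted p = 0.203) and -2.57 ± 0.49 for C. tropicalis (0.135). Slc25a20, the mitochondrial carnitine carrier, was at -0.68 ± 0.15 and -0.71 ± 0.17 (0.151 and 0.169).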

How the data were processed

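Per the labels' protocols, colon RNA was purified with the RNeasy Mini kit and sequenced from NEBNext Ultra RNA libraries, a kit that does not keep the strand. The deposited table holds counts, whole numbers of reads per Ensembl gene identifier without normalization, per the file headers and values. Alignment to mm10 and counting tools are listed, in the submitters' processing notes, as DESeq 1.18.0, TopHat2 2.0.12 and HTSeq with the version 6.1. The release of the annotation, the filters and how strand was set were not given in the sources used here. Gene symbols, positions and exon lengths came from GENCODE M21 (GRCm38, the assembly behind mm10), which holds 52489 of the identifiers.

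Counts were tested with edgeR 4.0.16 (R 4.3.3, limma 3.58.1): TMM factors, filterByExpr on the 3 groups, 1 quasi-likelihood fit of the 8 libraries with 5 residual degrees of freedom, F-tests of the 3 contrasts, and Benjamini-Hochberg adjustment over the 16107 tested genes, with 0.05 as the threshold. The SE is the size of the log2 fold change divided by the square root of F. Levels are CPM on TMM-scaled library sizes, and scores use log2 CPM with a prior count of 2. The fit was also run on simulated counts with known changes, drawn for each gene on its own. Shifts shared by many genes were thus not part of that trial, and no result here rests on it. The upper limit of a count of 0, taken as 3 counts, was 0.152 to 0.185 CPM and covers counting error only. Isolator, cage and handling are not given in the labels, so no batch could be separated from the groups.

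The 10 members and the other gene and marker lists were chosen with earlier results of these data known, so no list was tested as a set. By the rule for names all 10 members are given whatever their result, and each other pathway list gives its members past the threshold or, where none passed, the 3 with the smallest p over both comparisons with control. The 3 genes of highest Pearson r over the 8 libraries are named per member. A few genes that these rules name are not reported here. Windows upstream of genes came from RefSeq (GRCm38.p6) and were searched on both strands. Alternatives were DESeq2 1.42.0, other size factors, other filters, a block for the replicate number, a fit of only the groups compared, smooth muscle or adipocyte scores as covariates, and each library left out.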

Additional observations from a re-analysis of the deposited data

Results flagged for a closer look

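Elovl6 was singled out because the yeasts lay on opposite sides of the control mean. All 3 C. albicans libraries were above it and both C. tropicalis libraries below it. C. albicans 1, at 39.97 CPM, was barely above the control mean of 39.68 CPM and below control 1 and 2. Both C. tropicalis libraries, at 19.3 and 18.87 CPM, were just above control 3, at 18.82 CPM. Both yeasts thus overlapped the range of the controls. The test of the difference itself, C. tropicalis against C. albicans, gave a log2 fold change of -1.53 with an adjusted p of 0.0848 (edgeR), which misses the threshold. It was the one such gene of the 10, while 15.9% of all tested genes (2557 of 16107) had libraries on opposite sides in this way. The smooth muscle score was higher in all C. albicans than in both C. tropicalis libraries as well, and with that score as a covariate the change was 0.09 ± 0.39 (SE).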

How the results depend on the processing

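Of 30 changes (10 genes in 3 comparisons), RLE or upper-quartile factors, a filter of 1 CPM in 3 libraries and the adipocyte covariate turned no sign and made no call. Between the yeasts, 0 members were called, but 3 with DESeq2, 1 with no filter, 1 with only the groups compared, and 0 to 2 without 1 library; in the other comparisons the count was 0 under every alternative. Genes called over all tested genes, 7 and 5 for C. albicans and C. tropicalis, each against control, and 0 between the yeasts, were in that order 461, 380 and 1753 with DESeq2, 119, 71 and 1127 with no filter, 16, 0 and 2 with the smooth muscle covariate, and 0 to 254, 0 to 192 and 0 to 1315 without 1 library. They were 4 and 0 against control with the adipocyte covariate, and with only the groups compared 0 for C. tropicalis against control and 858 between the yeasts. Among the fits without 1 library, the highest counts came without C. albicans 1 (254 and 1315) and without control 3 (192). DESeq2 was run on 26954 genes and the fit with no filter on 26975, against 16107 in the main fit. Their counts thus have a different base.

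With the smooth muscle covariate the signs turned, with C. albicans against control, for Acaca (0.01), Acly (0.16), Scd2 (0.0351), Elovl6 (-0.0875), Fads1 (-0.0604), Fads2 (0.24) and Me1 (-0.15). With C. tropicalis against control they turned for Acly (-0.24), Elovl6 (0.0063), Fads1 (0.39), Fads2 (-0.58) and Me1 (0.24), and between the yeasts for Fasn (-0.28), Acly (-0.40), Elovl6 (0.0939), Fads1 (0.45), Fads2 (-0.82), Srebf1 (-0.0709) and Me1 (0.40). The cause was not tested. Leaving out 1 library also turned 16 small changes. The ranges over the 8 fits were, with C. albicans against control, -0.029 to 0.37 (Fasn), -0.14 to 0.11 (Acaca), -0.60 to 0.14 (Scd1), -0.47 to 0.18 (Scd2) and -0.0926 to 0.21 (Srebf1). With C. tropicalis against control they were -0.0089 to 0.36 (Acaca), -0.30 to 0.37 (Scd1) and -0.24 to 0.0822 (Fads1), and between the yeasts -0.052 to 0.57 (Fasn) and -0.055 to 0.68 (Scd1). Where 1 C. tropicalis library was left, its variation was taken from the other libraries.

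The labels do not say whether the replicate numbers pair the libraries. Same-numbered deviations from the group mean correlated at -0.39, -0.08 and -0.13 between C. albicans and control. They correlated at -0.02 and 0.03 between C. tropicalis and control, and at 0.16 and 0.15 between the yeasts. Deviations of the 2 C. tropicalis libraries mirror each other by construction, so these values cannot decide whether the numbers pair the libraries. With the number as a block, genes called were 0, 0 and 0, member calls 0, and no member changed sign; the median member change was 0.01, 0.32 and 0.32. With 2 or 3 libraries a group, the spread between libraries, not the depth, limits precision.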
